A study of Drosophila melanogaster with 42 samples.

Results

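The 5 genes described here, br (broad), Eip74EF (E74), Eip93F (E93), Blimp-1 and chinmo, encode transcription factors of fruit fly metamorphosis. They were taken by exact gene name from a count table of 15038 Drosophila melanogaster genes, in which each name occurs once. The rule uses names only, but the 5 names were picked with earlier results of these data known. All 5 passed the filter on low counts, which kept 13672 genes for testing. RNA-seq libraries were made from whole ERR mutant flies and whole control flies, ERR (Estrogen-Related Receptor) being an orphan nuclear receptor known for turning on genes of sugar metabolism. Each genotype was sampled at 7 stages, labelled WPP (white prepupa), P1, P2, P3, P4, A1 and A6, with 3 libraries per genotype and stage and 42 libraries in all. The labels do not spell out the later stage names; P is read here as pupal and A as adult, and no time in hours or days is given for them.

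Animals of both genotypes were heat-treated on both day 4 and day 5 AEL, and were staged from WPP. The labels give the presence or absence of an hsFLP transgene, a heat-shock-driven source of FLP recombinase, as the difference between the genotypes. A difference between ERR mutants and controls therefore cannot be told apart from an effect of that transgene. The ERR allele, the sexes in each library and the number of animals pooled are not given in the sources used here.

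A fly larva becomes an adult under pulses of the steroid hormone ecdysone, whose receptor switches on a small set of regulatory genes directly. Some of these encode transcription factors, including those of br and Eip74EF, which pass the signal on to tissue-specific genes, and each later pulse meets a different set of factors. Of these genes, 3 are also known as stage specifiers that act against each other: chinmo for the larval state, br for the pupal state and Eip93F for the adult state. Blimp-1, a zinc finger repressor with a counterpart in mammalian lymphocytes, is turned on by ecdysone and delays the prepupal nuclear receptor ftz-f1, which makes it part of the timer of pupation.

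The genes lie on 4 chromosome arms of the dm6 assembly, with coordinates and transcript counts from the Ensembl annotation of that assembly. br (FBgn0283451) spans X:1575132-1664869 on the plus strand and has 16 annotated transcripts from 9 start sites. Eip74EF (FBgn0000567) spans 3L:17558672-17619325 on the minus strand, with 5 transcripts from 3 start sites. Eip93F (FBgn0264490) spans 3R:21949114-22014539 on the plus strand, with 3 transcripts from 2 start sites. Blimp-1 (FBgn0035625) spans 3L:5630983-5652094 on the plus strand, with 6 transcripts from 4 start sites, and chinmo (FBgn0086758) spans 2L:1651258-1704682 on the plus strand, with 6 transcripts from 2 start sites. The counts are per gene and do not separate the isoforms. br shares 189 exonic bases with Mur2B on the opposite strand, and the strand setting of the counting is not given, so br levels are uncertain where Mur2B is high.

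Library totals ran between 4308848 and 7737140 counts. Levels are given as CPM, the usual unit of counts scaled to the depth of the library, after trimmed-mean scaling between libraries, with the SD over the 3 libraries of a group. A gene is called where the adjusted p of edgeR's quasi-likelihood test, corrected over all genes tested in that comparison by Benjamini-Hochberg, is below 0.05. Nothing in the labels says that the libraries within a group are separate collections, so p-values measure the spread between libraries, which may be technical. Where groups of 3 libraries do not overlap, this is given as a description only, as the share of all genes without overlap was not computed. ERR itself was lower in the ERR mutant libraries at all 7 stages with no overlap between groups, with group means between 5.46 and 11.4 CPM, against 11.3 to 35.6 CPM in controls, and it was called lower at P4, A1 and A6 (log2 fold changes of -1.40, -1.31 and -2.70). The library labelled ERR mutant P1 replicate 1 stands apart. Its 5 testis markers summed to 2.30 CPM and its male-specific roX RNAs to 4.46 CPM, against 237 and 274 CPM and 245 and 286 CPM in the other mutant P1 libraries.

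br had its peak at WPP and dropped steeply at once. It encodes a family of BTB zinc finger proteins that set the pupal programme. At WPP it stood at 1311, 1432 and 1109 CPM in ERR mutants and at 1407, 1231 and 1348 CPM in controls. At P1 the values were 121, 94.4 and 103 CPM in mutants and 109, 93.0 and 115.1 CPM in controls, and at P2 they were 31.6, 25.8 and 26.1 CPM in mutants and 26.5, 28.2 and 29.5 CPM in controls. Every P1 library lay below every WPP library, every P2 library lay below every P1 library, and within each of the 3 stages the genotypes overlapped. The later group means lay between 25.4 and 30.8 CPM at P3 and P4 in either genotype and between 8.97 and 13.7 CPM in the adult stages.

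In controls br fell 12.6-fold at P1 against WPP (log2 fold change -3.65, SE 0.178, adjusted p = 1.27e-17), a comparison in which 46.7% of all genes were called. It fell a further 3.77-fold at P2 against P1 (-1.91, SE 0.172, adjusted p = 3.81e-11; 44.8% of all genes were called), and 2.78-fold at A1 against P4 (-1.47, adjusted p = 1.23e-07; 38.9% of all genes). Ordered by control level, WPP was followed by P1, P4, P2, P3, A6 and A1. P4 was 3.46-fold lower than P1 (adjusted p = 7.17e-11; 66.9% of all genes were called between these stages), and A6 was 2.30-fold lower than P3 (adjusted p = 1.66e-06; 56.8% of all genes). The neighbours P4 and P2 (adjusted p = 0.563; 55.4% of all genes called), P3 and P2 (0.609; 36.5% of all genes) and A6 and A1 (1.0; 24.4% of all genes) did not differ beyond their spread. Mur2B, the gene on the opposite strand, averaged 117 ± 21.8 CPM in mutants and 162 ± 27.1 CPM in controls at P2, more than br itself there, whereas at WPP it averaged 3.62 ± 0.257 CPM in mutants and 4.13 ± 1.07 CPM in controls (SD, n = 3 each). It stayed above br at every later stage, with group means between 25.3 CPM (A1) and 88.3 CPM (P3) in mutants and between 26.3 CPM (A1) and 93.4 CPM (P3) in controls. Its part in the br levels and steps from P2 onward was not tested.

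Eip74EF, which encodes an ETS-domain factor of the first ecdysone response, had 2 peaks, at P2 and at P4. At P1 it stood at 151, 130.2 and 127 CPM in ERR mutants and at 146, 131 and 144 CPM in controls. At P2 it stood at 487, 285 and 397 CPM in mutants and at 668, 781 and 608 CPM in controls. At P3 it was back to 190.4, 148 and 132 CPM in mutants and 168, 168 and 119 CPM in controls. In each genotype all P2 libraries were above all libraries of the stages before and after, and at P2 every mutant library was below every control library. At P4 the gene stood at 390.4, 377 and 402 CPM in mutants and 416, 415 and 417 CPM in controls. At A1 it stood at 68.4, 52.4 and 42.1 CPM in mutants and 75.0, 84.3 and 53.4 CPM in controls, and at A6 at 22.4, 25 and 19.5 CPM in mutants and 15.1, 18.8 and 16.8 CPM in controls. The adult libraries were the lowest of all stages, and the genotypes overlapped at A1 but not at P4 or A6, although neither was called (adjusted p = 0.885 and 0.221).

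Of the 6 control steps between successive stages, 5 were called for Eip74EF. It rose 4.89-fold at P2 against P1 (log2 fold change 2.29, SE 0.184, adjusted p = 2.63e-12) and fell 4.52-fold at P3 against P2 (-2.18, SE 0.184, adjusted p = 1.27e-11). It rose again 2.74-fold at P4 against P3 (1.46, adjusted p = 4.83e-08; 37.5% of all genes were called), then fell 5.87-fold at A1 against P4 (adjusted p = 6.45e-13) and 4.197-fold at A6 against A1 (adjusted p = 4.61e-10). Ordered by control level, the P2 peak was followed by P4, WPP, P3, P1, A1 and A6. P4 was 1.65-fold lower than P2 (adjusted p = 0.000748) and 2.53-fold higher than WPP (adjusted p = 6.34e-08; 76.1% of all genes were called between P4 and WPP). P3 did not differ beyond its spread from WPP (adjusted p = 0.571; 68.5% of all genes called) or from P1 (0.620; 56.7% of all genes), and A1 was 1.98-fold lower than P1 (1.49e-05; 73.1% of all genes). In ERR mutants the means at P4 and P2, 389.9 and 389.5 CPM, were not called apart (adjusted p = 1.0), in a comparison that called 52.8% of all genes.

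Eip93F, a helix-turn-helix factor needed for the adult programme and for the death of some larval tissues, was most abundant at WPP and P1 and stayed present afterwards. At P1 it stood at 574.5, 348 and 297 CPM in ERR mutants and at 379.6, 291 and 397 CPM in controls, and at P2 at 169.5, 109 and 133 CPM in mutants and 78.6, 113 and 116 CPM in controls. Every P2 library was below every P1 library, and the genotypes overlapped at both stages. The highest P1 value is that of the mutant library that stands apart by its testis and roX counts. From P3 to A6 the libraries of both genotypes ranged from 55.3 to 178 CPM.

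In controls Eip93F fell 3.47-fold at P2 against P1 (log2 fold change -1.80, SE 0.210, adjusted p = 1.13e-08), rose at P4 against P3 (0.57, adjusted p = 0.0303) and fell 1.76-fold at A6 against A1 (-0.82, adjusted p = 0.00309). The P4 rise was no longer called without control P3 replicate 2 (adjusted p = 0.0779), control P3 replicate 3 (0.125), control P4 replicate 2 (0.0882) or control P4 replicate 3 (0.0896). Ordered by control level, P1 was followed by WPP, A1, P4, P2, A6 and P3. WPP and P1 did not differ beyond their spread (adjusted p = 0.234). A1 was 1.83-fold lower than WPP (adjusted p = 0.00035; 78.8% of all genes were called), and the neighbours below A1 were not called apart, with adjusted p between 0.0510 for A1 against P4 and 0.620 for P4 against P2. Eip93F at P3 against P2 (-0.44, adjusted p = 0.1003) was called lower without control P2 replicate 1 (-0.60, adjusted p = 0.0310). The A1 rise over P4 (0.51) lay at the threshold and was called in 22 of the 42 fits that left out 1 library and in all 5 other settings run (adjusted p between 0.0220 and 0.0492), which made 4 genes called at that control step in place of 3. The P2 and A6 levels gave an adjusted p of 0.430, in a comparison that called 69.0% of all genes.

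Blimp-1 had a deep trough at P3 and P4, between higher levels before and after. At WPP it stood at 183.5, 233 and 211 CPM in ERR mutants and at 225, 169 and 210.4 CPM in controls. At P1 it stood at 108, 87.6 and 90.4 CPM in mutants and at 79.7, 70.0 and 76.7 CPM in controls, and at P2 at 137, 139.9 and 157 CPM in mutants and at 49.3, 58.2 and 69.7 CPM in controls. The genotypes overlapped at WPP, whereas every mutant library was above every control library at P1 (log2 fold change 0.34, adjusted p = 0.541, not called) and at P2. At P3 the gene fell to 4.53, 5.68 and 10.0 CPM in mutants and 4.59, 7.63 and 8.37 CPM in controls. At P4 it stood at 4.42, 2.49 and 4.78 CPM in mutants, from 10 to 24 counts a library, and at 2.69, 4.00 and 4.65 CPM in controls, from 15 to 22 counts. The genotypes overlapped at both stages, where these few counts limit the precision. At A1 the values were 77.2, 64.5 and 58.2 CPM in mutants and 73.5, 85.3 and 56.8 CPM in controls, and at A6 they were 67.6, 74.9 and 54.3 CPM in mutants and 44.9, 53.3 and 45.1 CPM in controls. All adult libraries were above all P3 and P4 libraries, and at A6 every mutant library was above every control library (not called, adjusted p = 0.132).

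In controls Blimp-1 fell 2.67-fold at P1 against WPP (log2 fold change -1.42, SE 0.190, adjusted p = 1.52e-07), fell 8.58-fold at P3 against P2 (-3.10, SE 0.229, adjusted p = 5.00e-13) and rose 19.1-fold at A1 against P4 (4.255, SE 0.248, adjusted p = 2.03e-15). Its lower control level at P4 than at P3 (-0.87, adjusted p = 0.0131) was not called without control P3 replicate 2 (0.0522), control P3 replicate 3 (0.0903) or control P4 replicate 1 (0.1002). The same held for A6 against A1 (-0.59, adjusted p = 0.0223), with an adjusted p of 0.0690 without control A1 replicate 1, 0.158 without control A1 replicate 2, 0.0921 without control A6 replicate 1 and 0.0879 without control A6 replicate 3. Ordered by control level, WPP was followed by P1, A1, P2, A6, P3 and P4. A1 did not differ beyond its spread from P1 (adjusted p = 0.750) or P2 (0.191; 66.7% of all genes were called), nor A6 from P2 (0.152). A6 was 6.94-fold above P3 (adjusted p = 1.98e-12).

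chinmo, a BTB zinc finger factor that holds the early identity of neurons and, in adults, the male identity of testis stem cells, varied least of the 5 genes on the CPM scale. Its libraries ranged from 24.9 to 54.3 CPM in ERR mutants and from 32.8 to 55.9 CPM in controls. The highest control mean, at A6, was 1.53-fold the lowest, at P2, and the corresponding ratio in mutants was 1.54, between A6 and P3. The authors' deposited FPKM of chinmo were further apart, with means between 4.24 (P4) and 9.36 (A1) in mutants and between 4.98 (P2) and 10.4 (A6) in controls, so the flat course holds for CPM only. At P2 it stood at 44.7, 48.3 and 44.0 CPM in mutants and at 38.99, 35.3 and 32.8 CPM in controls, and at P3 at 31.1, 36.8 and 36.3 CPM in mutants and at 45.9, 37.7 and 48.1 CPM in controls. The groups did not overlap at either stage, mutants being above controls at P2 and below them at P3, but edgeR called chinmo between the genotypes at neither stage.

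The single control step called for chinmo was P2 against P1 (log2 fold change -0.34, SE 0.139, adjusted p = 0.0452). It was not called in 27 of the 42 fits that left out 1 library, over which the adjusted p ran between 0.0192 and 0.231, and with DESeq2 its adjusted p was 0.101. Ordered by control level, A6 was followed by WPP, A1, P1, P4, P3 and P2, and no neighbours in that order were called apart. The adjusted p was 0.248 between A6 and WPP, in a comparison that called 79.2% of all genes, and 0.0979 between P3 and P2 (log2 fold change 0.30). The P3 rise was called without control P3 replicate 2 (0.40, adjusted p = 0.0434) and with DESeq2 (0.42, adjusted p = 0.00961).

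**Figure D1:**
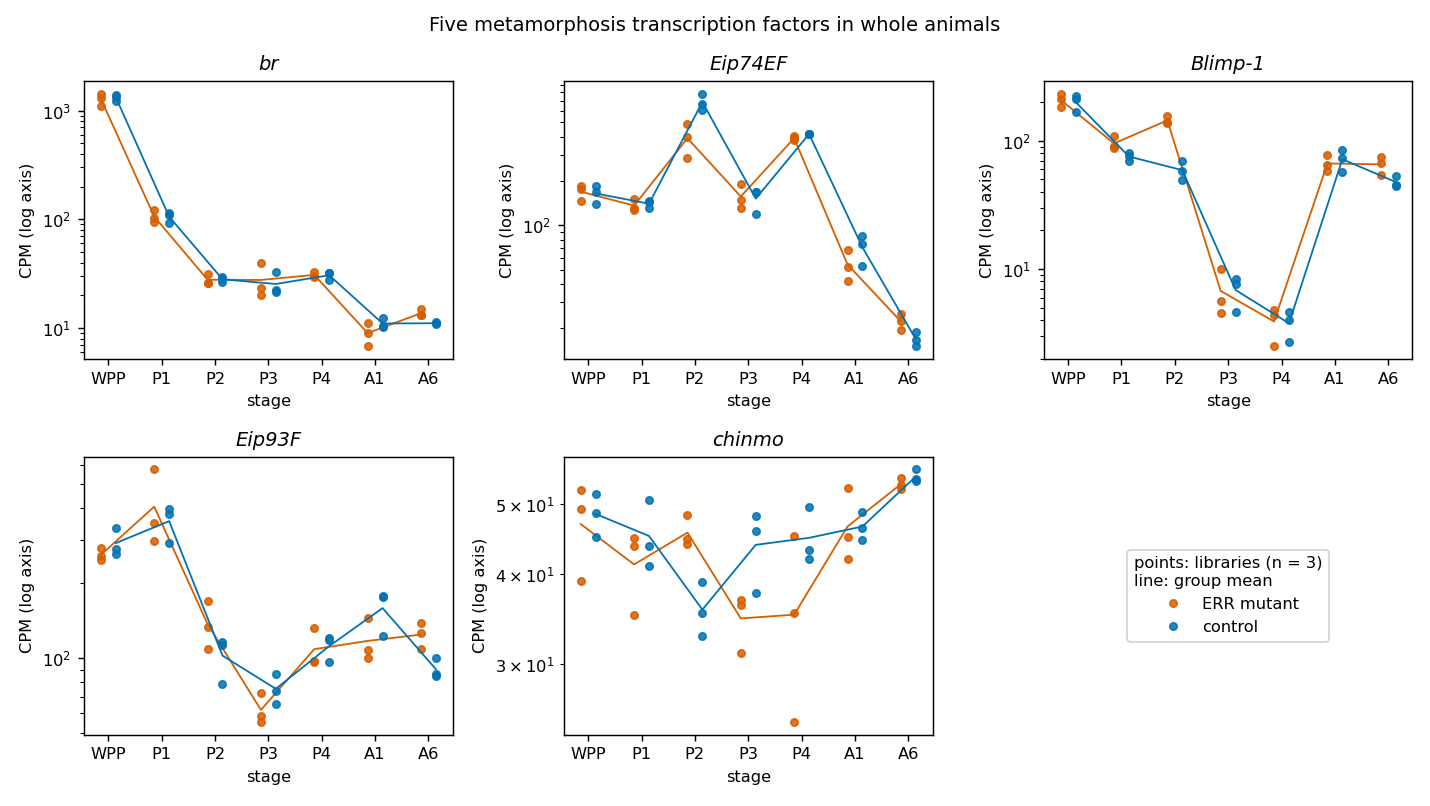
Level of each gene in every library by stage, in CPM on a log axis, with ERR mutant libraries to the left of control libraries and a line through the group means. br falls from above 1000 CPM at WPP, Eip74EF peaks at P2 and P4, Blimp-1 drops below 11 CPM at P3 and P4, and chinmo stays between 24.9 and 55.9 CPM on this scale.

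Over the 6 control steps, 17 of 30 gene-by-step tests were called, with 5 steps each for Eip74EF and Blimp-1, 3 each for br and Eip93F and 1 for chinmo. The share of all genes called at these steps lay between 24.4% and 46.7%, so the count of 2 to 4 called genes of 5 at a step is read against a background in which a large part of the transcriptome moved. In whole flies, fewer cells of a type and less RNA per cell cannot be told apart, and this holds for every change reported here.

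Per unit of transcript length, the leading gene of the group changed with the stage. On the FPKM scale, in the authors' deposited values, br made up 63.8% of the summed level of the 5 genes at WPP in ERR mutants and 66.1% in controls. Eip93F led at P1 with 35.4 ± 6.50% in mutants and 33.4 ± 1.81% in controls (SD, n = 3 each). Its highest mutant value, 51.7 FPKM, was in replicate 1, the library that stands apart. In mutant P1 replicate 3 it stood at 23.2 FPKM, close to the 22.4 FPKM of Eip74EF. Eip74EF led at P2, P3 and P4, with 66.5% in mutants and 62.1% in controls at P3 and 80.2% in mutants and 79.4% in controls at P4. At A1 the largest shares were those of Blimp-1, with 31.7% in mutants and 28.5% in controls, and of Eip93F, with 25.1% in mutants and 28.5% in controls. The summed FPKM was 252 in mutants and 251 in controls at WPP, and 38.4 in mutants and 33.99 in controls at A6, so the adult shares are shares of a much smaller total.

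**Figure D2:**
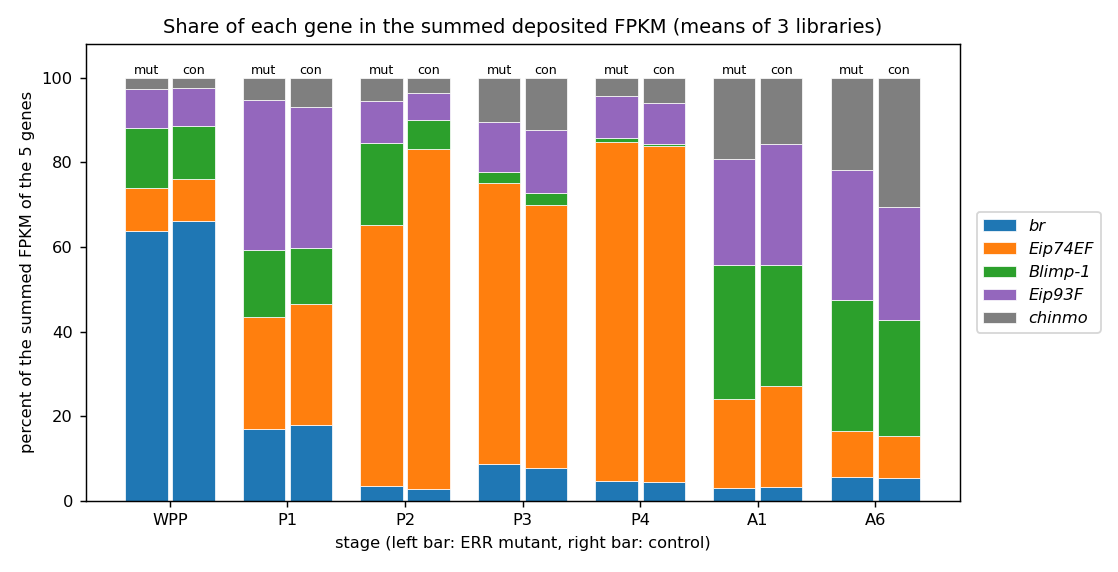
Percent of the summed FPKM of the 5 genes taken by each gene at each stage, as means of 3 libraries, with the ERR mutant bar to the left of the control bar. br takes most of the sum at WPP and Eip74EF most of it from P2 to P4; at P2 the Eip74EF share is 61.6% in mutants and 80.3% in controls.

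Between the genotypes, 2 of 35 gene-by-stage tests were called, both at P2. Blimp-1 was higher in ERR mutants and Eip74EF was lower, while br was not called. Blimp-1 averaged 144 ± 10.7 CPM in mutants and 59.1 ± 10.2 CPM in controls (SD, n = 3 each), a 2.44-fold difference (log2 fold change 1.29, SE 0.192, edgeR adjusted p = 9.42e-06). Eip74EF averaged 389.5 ± 101 CPM in mutants and 685 ± 87.9 CPM in controls, 1.76-fold lower in mutants (-0.82, SE 0.176, edgeR adjusted p = 0.00149). For both genes all 3 mutant libraries lay on the same side of all 3 control libraries. At P2, 1582 of 13672 genes or 11.6% were called between the genotypes, nearly the same number as at A6, among which Blimp-1 ranked 217th and Eip74EF 566th by p. The 2 calls of 5 genes are read against that share.

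Both P2 differences were called in each of the 42 fits that left out 1 library. The log2 fold change of Blimp-1 then ran between 1.18 and 1.42 with adjusted p up to 0.000206, and that of Eip74EF between -1.01 and -0.64 with adjusted p up to 0.0254. Fitted on the 6 P2 libraries alone, a fit that called 6.29% of all genes, Eip74EF kept its size (-0.78) at an adjusted p of 0.0537. br averaged 27.8 ± 3.26 CPM in mutants and 28.1 ± 1.49 CPM in controls at P2 (log2 fold change -0.02, SE 0.175). Eip93F (0.42, adjusted p = 0.213) and chinmo (0.36, adjusted p = 0.1004) were not called at P2. For chinmo the call depended on the fit: its adjusted p was 0.0497 without mutant P4 replicate 2 and 0.0325 with DESeq2.

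At the other stages edgeR called none of the 5 genes between ERR mutants and controls, and DESeq2 called none either. The share of all genes called by edgeR was 0.651% at WPP, 0.797% at P1, 0.446% at P3, 0.856% at P4, 2.9% at A1 and 11.4% at A6. The unadjusted edgeR p was below 0.05 for chinmo at P3 (-0.34) and P4 (-0.35) and for Eip74EF (-0.39) and Eip93F (-0.44) at A1. The same held for Blimp-1 (0.46) and Eip93F (0.46) at A6, for every gene but br at P2 and for none at WPP or P1. The share of all genes below this unadjusted threshold was not computed, so these values are not read as differences. The adjusted p at A6 was 0.132 for Blimp-1 and 0.163 for Eip93F. At A6, Eip93F stood at 138, 126 and 109 CPM in mutants and 84.5, 86.2 and 100.1 CPM in controls, with no overlap. When the 6 A6 libraries were fitted alone, Eip93F (0.45, adjusted p = 0.000906), Blimp-1 (0.45, adjusted p = 0.00571) and Eip74EF (0.40, adjusted p = 0.0273) were called higher in mutants. That fit called 26.1% of all genes, against the 11.4% above, so at A6 the call depended on whether the spread was shared over all 14 groups. The roX RNAs summed to between 695 and 846 CPM in mutants and between 498 and 560.2 CPM in controls at A6, and the neuronal markers to between 666 and 762.5 CPM in mutants and between 572 and 628 CPM in controls. The larval fat body proteins summed to between 3.09 and 4.19 CPM in mutants and between 19.8 and 43.6 CPM in controls, and the yolk proteins to between 5.32 and 8.87 CPM in mutants and between 10.4 and 11.7 CPM in controls. None of these 4 sums overlapped between the genotypes at A6, and their part in these values was not tested.

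**Figure D3:**
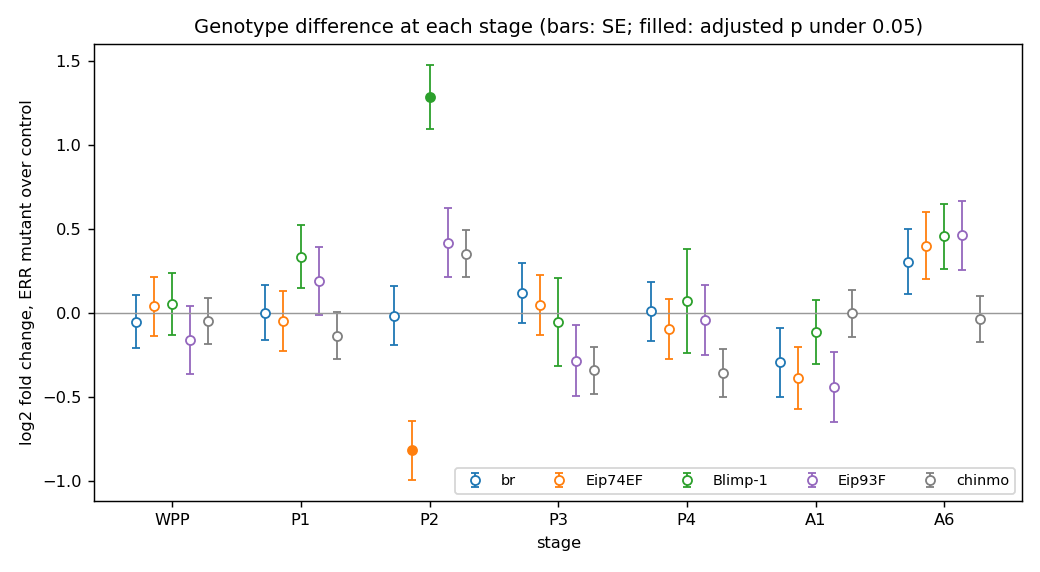
Log2 fold change of each gene, ERR mutant over control, at each stage. Bars are 1 SE, derived from the fold change and F value of the edgeR test, and points are filled where the adjusted p is below 0.05. The filled points are Blimp-1 at 1.29 and Eip74EF at -0.82, both at P2, and all others are open.

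Whether a difference at 1 stage departs from the rest of the time course was tested by the genotype-by-stage term with 6 degrees of freedom, which called 12.4% of all genes. Blimp-1 (adjusted p = 0.00532) and Eip74EF (adjusted p = 0.0252) were called by edgeR, and chinmo (0.119), Eip93F (0.132) and br (0.784) were not. The Blimp-1 call held in all 42 fits that left out 1 library, with adjusted p up to 0.0231. The Eip74EF call did not: its adjusted p was 0.0780 when mutant P2 replicate 2 was left out, 0.0533 for mutant P2 replicate 3, 0.0821 for control P2 replicate 2, 0.0509 for control A6 replicate 1, 0.0530 for mutant A6 replicate 2 and 0.0856 with the deposited scaling factors as offsets.

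The path of Blimp-1 through P2 had a different shape in the genotypes. In ERR mutants it rose 1.51-fold at P2 against P1 (log2 fold change 0.60, SE 0.188, adjusted p = 0.00893; 52.6% of all genes were called) and then fell 21.7-fold at P3 against P2 (-4.44, adjusted p = 1.14e-16; 38.1% of all genes). The control values at the same steps were -0.35 (adjusted p = 0.141) and -3.10. The difference between the genotypes in the P2 step was 0.95 (SE 0.267, adjusted p = 0.0380), a test that called 3.55% of all genes. That difference lost its call in 8 of the fits that left out 1 library, those without control P1 replicate 1 or 3, mutant P1 replicate 2 or 3, control P2 replicate 1 or 2, or mutant P2 replicate 2 or 3, where the adjusted p lay between 0.0608 and 0.0841, and with the deposited scaling factors as offsets (0.76, adjusted p = 0.101).

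The difference in the P3 step, which called 6.28% of all genes, was -1.34 for Blimp-1 (SE 0.326, adjusted p = 0.00878), 0.86 for Eip74EF (SE 0.251, adjusted p = 0.0331) and -0.70 for chinmo (SE 0.199, adjusted p = 0.0300). Blimp-1 thus fell further at P3 in ERR mutants, and Eip74EF fell less, 2.48-fold in mutants and 4.52-fold in controls. chinmo fell in mutants (-0.40), while its control step of 0.30 was not called. With the deposited scaling factors as offsets, described further on, the P3 step difference was not called for Eip74EF (adjusted p = 0.0674) or chinmo (0.293). Without control P3 replicate 3 the adjusted p of all 3 rose, to 0.0558 for Blimp-1, 0.118 for Eip74EF and 0.0920 for chinmo. Leaving out mutant P2 replicate 2 (0.128) or 3 (0.0504), mutant P3 replicate 1 (0.131) or control P2 replicate 2 (0.0987) also ended the Eip74EF call. chinmo was not called when control P2 replicate 2 (0.0694) or 3 (0.0929), mutant P2 replicate 2 (0.0914), control P3 replicate 1 (0.0745) or mutant P3 replicate 1 (0.0972) was left out.

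In ERR mutants 20 of 30 gene-by-step tests were called, with 5 steps each for Eip74EF and Blimp-1, 4 each for br and Eip93F and 2 for chinmo. The share of all genes called at these mutant steps lay between 26.8% and 52.6%, and the count is read against it. br fell 12.1-fold at P1 against WPP (44.9% of all genes were called at this step) and 3.82-fold at P2 against P1, close to the control folds of 12.6 and 3.77. Eip74EF rose 2.86-fold at P2 against P1, against 4.89-fold in controls (difference -0.77, SE 0.250, adjusted p = 0.0896), and 2.49-fold at P4 against P3, a step that called 37.9% of all genes. Blimp-1 rose 16.8-fold at A1 against P4 in mutants (47.0% of all genes were called) and 19.1-fold in controls. Blimp-1 at P2 was 1.45-fold below its WPP level in mutants (adjusted p = 0.0136; 65.6% of all genes), and 3.41-fold below it in controls.

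Several of the weaker mutant steps rested on single libraries or settings. Eip93F rose at P1 against WPP (0.64, adjusted p = 0.00943), but not without mutant P1 replicate 1, the library that stands apart (0.31, adjusted p = 0.167). br was higher at A6 than at A1 in mutants (0.605, adjusted p = 0.0200; 26.8% of all genes were called), but not without mutant A1 replicate 2 (0.133), mutant A1 replicate 3 (0.0516) or mutant A6 replicate 1 (0.0679). chinmo fell at P3 against P2 (-0.40, adjusted p = 0.0250), but not without mutant P2 replicate 2 (0.0930) or mutant P3 replicate 1 (0.128), and 3 of 5 other settings did not call it (adjusted p between 0.0575 and 0.224). It rose at A1 against P4 (0.41, adjusted p = 0.0180), but not without mutant P4 replicate 2 (0.207) or mutant A1 replicate 3 (0.114), nor with only the P4 and A1 mutant libraries (0.0634). With the deposited scaling factors as offsets the same step was larger (1.14, adjusted p = 2.05e-05). The mutant fall of Blimp-1 at P4 against P3 (-0.745, adjusted p = 0.0427) was not called without mutant P1 replicate 1 (0.0669), mutant P3 replicate 3 (0.402), mutant P4 replicate 1 (0.0546) or mutant P4 replicate 2 (0.219).

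Because these genes mark developmental time, the stage of each library was also read from other genes. Each library was placed on the control time course by 10673 genes that change between control stages, with the 5 genes and the pathway genes left out, on a scale where WPP is 1 and A6 is 7. At P2 the ERR mutant libraries lay at 2.84, 2.76 and 2.80 and the control libraries at 3.06, 3.02 and 2.95. No mutant library reached the lowest control library, and the mean difference was -0.21 (exact two-sided permutation test, p = 0.1, the smallest that 3 against 3 allows). At A6 mutants lay at 6.88, 6.86 and 6.90 and controls at 6.95, 6.96 and 6.98 (difference -0.085, exact p = 0.1). A6 ends the scale, so no library could lie above 7, which limits what the direction of this difference can show. At the other stages the exact p lay between 0.3 and 1.0. The part of this offset in the P2 differences was not tested, and the time between P1 and P2 was not sampled.

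The mutant P2 levels were also set beside those of controls at P1. Blimp-1 at 144 ± 10.7 CPM in mutants at P2 was above 75.5 ± 4.95 CPM in controls at P1 as well as above 59.1 ± 10.2 CPM in controls at P2. A comparison of mutant P2 with control P1, added after the P2 values were seen and calling 45.2% of all genes, gave 1.91-fold higher Blimp-1 (log2 fold change 0.935, SE 0.189, adjusted p = 0.000112) and 2.78-fold higher Eip74EF (1.47, SE 0.180, adjusted p = 3.24e-08). In the same comparison br was 3.81-fold lower (adjusted p = 5.20e-11), Eip93F was 2.59-fold lower (adjusted p = 1.55e-06) and chinmo was not called (0.02, adjusted p = 0.958).

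**Figure D4:**
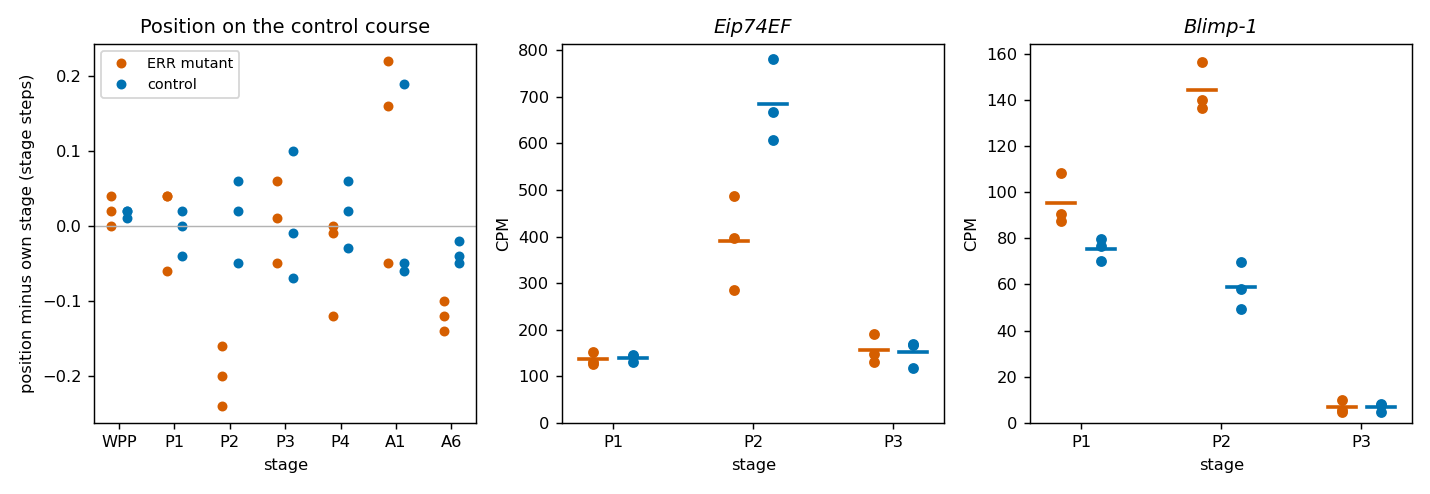
Position of each library on the control time course minus the number of its own stage (in stage steps, WPP = 1 to A6 = 7), and levels of Eip74EF and Blimp-1 in CPM at P1, P2 and P3, with ERR mutants to the left of controls and 1 point per library; short bars are group means. P2 has the number 3, so positions of 2.76 to 2.84 lie under the zero line in the mutant libraries and positions of 2.95 to 3.06 lie around it in the control libraries; mutant Blimp-1 at P2 (137 to 157 CPM) is above all P1 and P3 libraries of either genotype.

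Several marker sums of sex and tissue did not overlap between the genotypes at P2. The male-specific roX RNAs summed to 329, 502 and 316 CPM in the ERR mutant libraries, against 295, 171 and 134 CPM in the control libraries, without overlap, while the 5 testis markers overlapped (339 to 602 CPM in mutants, 232 to 496 in controls). The 4 markers of dividing cells summed to between 119.7 and 142 CPM in mutants and between 81.5 and 108 CPM in controls, and the 3 yolk protein genes to between 2.59 and 3.21 CPM in mutants and between 4.30 and 8.08 CPM in controls. The 4 larval fat body storage proteins summed to between 4256 and 4802 CPM in mutants and between 4964 and 5758 CPM in controls. The 4 neuronal markers overlapped (607 to 763 CPM in mutants, 669 to 733 CPM in controls), and of the 5 salivary gland glue genes 4 had no counts in mutants and 3 had none in controls. The part of these markers in the Blimp-1 and Eip74EF differences was not tested.

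The other genes of the ecdysone cascade were read from lists chosen with earlier results of these data known. Of 10 nuclear receptors of the cascade, 1 was higher and 2 were lower in ERR mutants at P2, where 11.6% of all genes were called. The median log2 fold change of the list was 0.09, against 0.00 over all genes. EcR, the ecdysone receptor itself, averaged 161 ± 16.8 CPM in mutants and 108 ± 28.6 CPM in controls (0.58, edgeR adjusted p = 0.00131). Eip75B, a heme-binding receptor of the early response, averaged 562 ± 114 CPM in mutants and 911 ± 137 CPM in controls (-0.70, adjusted p = 4.68e-05). Hr4, an early-late receptor, averaged 702 ± 117 CPM in mutants and 1238 ± 147 CPM in controls (-0.82, adjusted p = 0.0102). Elsewhere Hr39 was lower at A1 (-0.48, adjusted p = 0.0125) and Hr3 higher at A6 (0.57, adjusted p = 0.0375), both named after their values were seen.

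The 4 genes of juvenile hormone reception and response had a median log2 fold change of 0.05 at P2, with adjusted p between 0.241 for gce and 1.0 for Kr-h1. At A6 gce, a juvenile hormone receptor, was higher in ERR mutants at 88.7 ± 8.55 CPM, against 51.9 ± 2.02 CPM in controls (0.77, adjusted p = 0.00023). Of 23 ecdysone-inducible effector genes, 1 was higher and 1 lower at P2 (list median -0.03), beside 11.6% of all genes called there. The cuticle gene Edg84A averaged 2.41 CPM in mutants and 0.106 CPM in controls, near the counting floor. Eip71CD, a methionine sulfoxide reductase, was lower both at P2, with 51.1 ± 15.6 CPM in mutants and 91.4 ± 31.3 CPM in controls (-0.845, adjusted p = 0.00178), and at A6, with 29.3 ± 0.417 CPM in mutants and 54.0 ± 5.98 CPM in controls (-0.88, adjusted p = 0.00162). Ddc, dopa decarboxylase of cuticle hardening, was higher in mutants at WPP, with 286 ± 94.7 CPM in mutants and 107 ± 47.6 CPM in controls (1.42, adjusted p = 0.00315).

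Of 7 death genes of larval tissues, 1 was called at P2, where the list median was 0.06 and 11.6% of all genes were called. It was hid, an activator of cell death, with 43.2 ± 3.06 CPM in ERR mutants and 25.7 ± 3.42 CPM in controls (0.75, adjusted p = 0.00962). Of 9 temporal identity genes listed around chinmo, 8 were tested and 2 were higher in mutants at P2, beside the same 11.6% of all genes, with a list median of 0.165. Imp, an RNA-binding protein that keeps young neurons in their early state and promotes chinmo, averaged 214 ± 6.12 CPM in mutants and 145 ± 4.42 CPM in controls (0.57, adjusted p = 4.65e-05). mamo, a BTB zinc finger gene, averaged 121.7 ± 19.9 CPM in mutants and 80.2 ± 15.6 CPM in controls (0.60, adjusted p = 0.0303). At A6 dati was higher, with 25.4 ± 3.12 CPM in mutants and 17.6 ± 2.31 CPM in controls (0.53, adjusted p = 0.00838).

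The genes of most similar time course were found by Pearson correlation of log2 CPM over the 14 group means, among 12359 genes with a group mean of at least 5 CPM. The group means share their libraries and the strong changes between stages, so r is given as a description without p. br had the most company, with 73 genes at r of 0.95 or more, led by rgr (0.988), SoxN (0.985), Mo25 (0.984), cpa (0.983) and Atg7 (0.983). Eip74EF had 1 such gene, jbug (0.952), followed by sba (0.931), alphaTub84B (0.919), CG14516 (0.917) and sfl (0.916). Eip93F had 2, MED6 and Ndc80 (both 0.955), followed by dgt6 and Spindly (both 0.944) and DNAlig1 (0.938). Blimp-1 had none, its closest being heix (0.947), CG11377, Atg12 and CG8230 (each 0.918) and LPCAT (0.915). chinmo had none either, and its closest were vis (0.873), CG3347 (0.868), CG14930 (0.858) and mael and CG30108 (both 0.852).

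The P2 means of both genotypes entered these correlations and so helped to select the genes. Their P2 differences are therefore no separate support, and 11.6% of all genes were called at P2. Of these genes, sba was lower in ERR mutants at P2 like Eip74EF (-0.47, adjusted p = 0.000894), whereas jbug was not called (-0.09, adjusted p = 0.737). None of the genes closest to Blimp-1 was called at P2, their adjusted p ranging from 0.159 for CG8230 to 0.964 for Atg12. Of those closest to Eip93F, dgt6 (0.75, adjusted p = 0.0424) and Spindly (0.63, adjusted p = 0.0110) were higher in mutants at P2. Among the 5 genes themselves the highest correlations were those of br with Eip93F (0.684) and of Eip93F with Blimp-1 (0.66), and the lowest was that of Eip74EF with chinmo (-0.705).

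The scale of the deposited values also varied by gene for these 5. The deposited counts divided by the deposited normalized values give a scaling factor per gene in each library. Relative to the library's median gene, its SD over the 42 libraries was 0.0799 on the log2 scale for br, 0.0995 for Eip74EF, 0.0909 for Eip93F, 0.159 for Blimp-1 and 0.222 for chinmo. The median gene had 0.00899, and the 5 genes exceeded between 89.8% and 97.6% of all genes. What this factor carries is not named in the sources used here, but it moved with the ratio of CPM to deposited FPKM. For chinmo in mutant P1 replicate 1 it was 0.827, at 35.1 CPM and 2.97 FPKM. In mutant P1 replicate 3 it was -0.013, at 43.8 CPM and 5.62 FPKM. The factor thus follows the transcript length by which FPKM are divided. Whether the mix of isoforms differed between libraries was not tested. For Blimp-1 at P2 the factor was 0.234, 0.190 and 0.241 in ERR mutants and 0.035, 0.085 and -0.030 in controls, without overlap. The deposited normalized values therefore show a smaller difference than the CPM. With the deposited factors as offsets in the same edgeR fit, Blimp-1 at P2 was still called, with a log2 fold change of 1.155.

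For chinmo at A6 the scales gave different pictures. Its CPM averaged 53.3 ± 0.926 in ERR mutants and 54.6 ± 1.10 in controls, with overlapping libraries, while its deposited FPKM averaged 8.27 ± 0.403 in mutants and 10.4 ± 0.565 in controls without overlap. The factor there was 0.103, -0.067 and 0.053 in mutants and -0.324, -0.159 and -0.157 in controls. Its share of the summed FPKM of the 5 genes was accordingly 21.7 ± 2.35% in mutants and 30.5 ± 2.27% in controls. At P2 the share of Blimp-1 was 19.4 ± 4.05% in mutants and 6.87 ± 1.68% in controls, and that of Eip74EF 61.6 ± 6.12% in mutants and 80.3 ± 2.96% in controls.

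**Figure D5:**
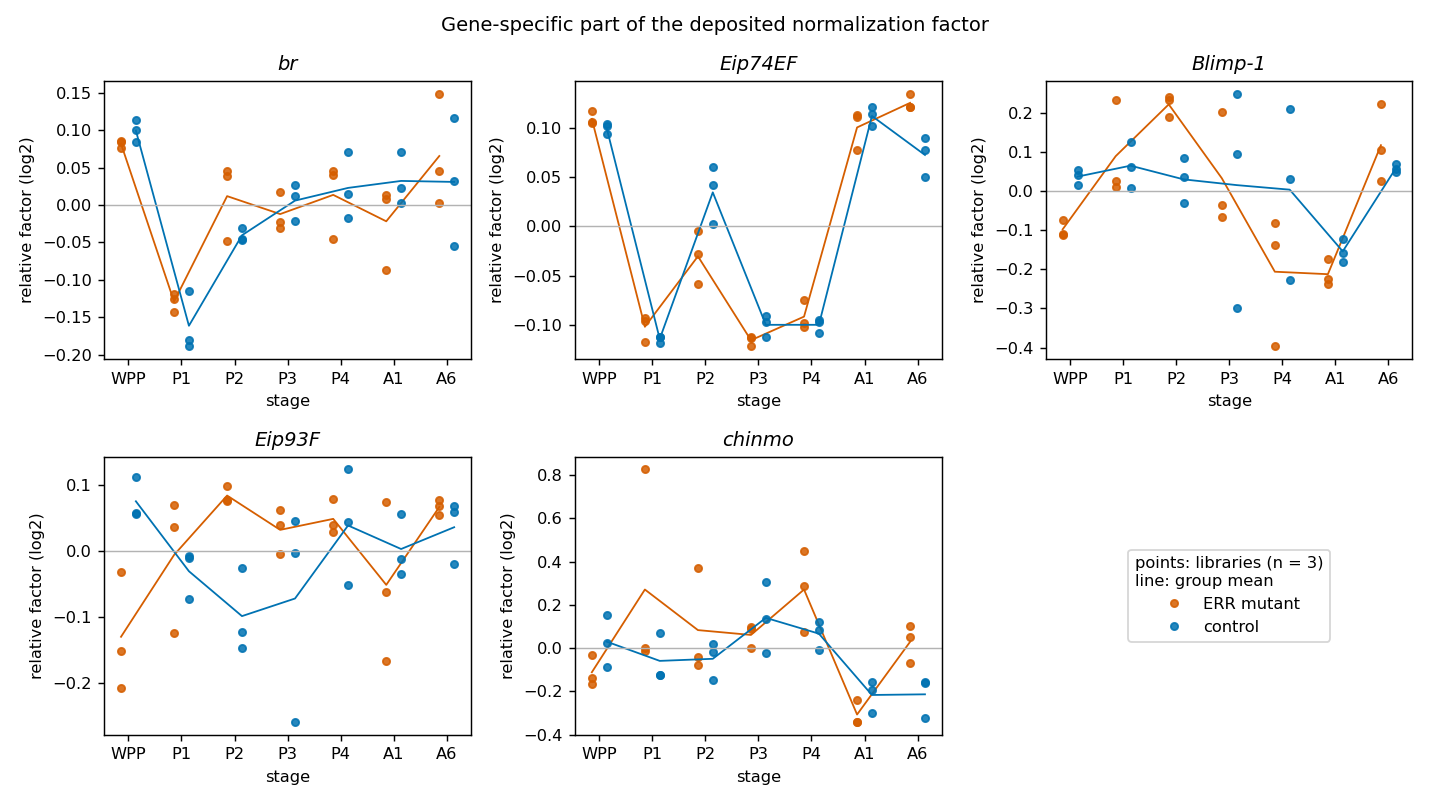
Deposited scaling factor of each gene by stage on the log2 scale, relative to the median gene of its library and to the gene's own mean over the 42 libraries. ERR mutant libraries are to the left of control libraries, with a line through the group means. Blimp-1 at P2 sits at 0.190 to 0.241 in mutants and -0.030 to 0.085 in controls, and chinmo at A6 sits above the controls in all 3 mutant libraries.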

How the data were processed

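Whole-fly poly(A) RNA was sequenced as stranded libraries, per the labels' protocols, in 42 libraries of 14 groups of 3. The authors deposited estimated counts per gene (whole numbers here), normalized values in which those counts are divided by a factor that differs by gene and library (a signal scale), and FPKM (fragment values per transcript length and depth). The submitters' processing notes name cutadapt 1.16, STAR 2.7.0f, RSEM 1.3.1, DESeq2 1.22.2 and the build dm6, without their roles; which annotation, strand setting and filters were used is not given in the sources used here. Log values and a sample sheet, also deposited, were not used. Each column was matched to its library by its name.

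Library totals were 4308848 to 7737140 counts. Replicate pairs differed by more than sampling noise (chi-square per gene 2.77 to 67.5 over 42 pairs), so no library was counted as a repeat. The counts were scaled by TMM, filtered by filterByExpr (13672 genes kept) and fitted in 1 quasi-likelihood model of 14 groups with 28 residual degrees of freedom (R 4.3.3, edgeR 4.0.16, limma 3.58.1). The model was also run on counts simulated from its own means and dispersions, which cannot show whether the real libraries follow it. P-values were adjusted by Benjamini-Hochberg over all genes tested in each comparison, with calls at 0.05. CPM come from the TMM-scaled library sizes. Standard errors were derived as the absolute log2 fold change divided by the square root of the F value of the quasi-likelihood test. DESeq2 1.42.0, DESeq2 size factors, the deposited factors as offsets, no filter, fits of only the groups compared and fits without each library were the alternatives. Positions on the control course used log2 CPM with a prior count of 2 (Python 3.11.15, numpy 2.4.6, pandas 2.3.3).

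The 5 genes and all lists were chosen with earlier results of these data known. Besides the 5 genes and ERR, the text names up to 3 genes per pathway list by smallest adjusted p between genotypes (Hr39 and Hr3 were added after their values were seen), the 5 genes most correlated with each of the 5, genes overlapping them, and markers as sums. Gene positions are from Ensembl release 115, which matched 99.4% of the gene IDs.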

Additional observations from a re-analysis of the deposited data

Results flagged for a closer look

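The genotype difference of Blimp-1 differed between stages by the interaction test of edgeR (adjusted p = 0.00532), with 2.44-fold higher levels in ERR mutants at P2 and log2 fold changes between -0.11 and 0.46 at the other stages. The same test was passed by Eip74EF (adjusted p = 0.0252), which was 1.76-fold lower in mutants at P2 and had log2 fold changes between -0.39 and 0.40 at the other stages. The step from P1 to P2 differed between the genotypes for Blimp-1 (adjusted p = 0.0380), which was called higher at P2 than at P1 in mutants and was not called in controls. The step from P2 to P3 differed for Blimp-1 (adjusted p = 0.00878), Eip74EF (adjusted p = 0.0331) and chinmo (adjusted p = 0.0300). For Blimp-1 and Eip74EF, whose P3 levels overlapped between the genotypes, this largely restates the P2 difference. For chinmo the mutant step was -0.40 and the control step, which was not called, was 0.30. All 6 tests share the P2 libraries, in which the roX RNAs, the markers of dividing cells and the position on the control course also did not overlap between the genotypes; their part in these differences was not tested.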

How the results depend on the processing

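No paired analysis was possible because the labels give no replicate numbers shared by groups. Blimp-1 and Eip74EF kept their direction at P2 under the other scalings, the other test, no filter and fits of the P2 libraries alone, with log2 fold changes between 1.155 and 1.34 for Blimp-1 and between -0.83 and -0.70 for Eip74EF. With only the libraries of the groups compared, 1 gene was called between genotypes at P2, 3 at A6 and 4 over the 35 tests. These fits called 6.29% of all genes at P2 and 26.1% at A6. At P1 against WPP in controls 4 genes were called. The share of all genes called by that fit is not given here, so this count is not read as a result. With the deposited factors as offsets 1 gene had a genotype-by-stage call (Eip74EF at adjusted p = 0.0856), and the step differences of Blimp-1 at P2 (adjusted p = 0.101), Eip74EF at P3 (0.0674) and chinmo at P3 (0.293) were not called. A comparison with control P1, added after the values were seen, changes the stage as well as the genotype. There Eip74EF at P2 in mutants was 1.47 higher on the log2 scale. Controls themselves rose by 2.29 from P1 to P2, so this sign is no check of the genotype difference at P2.

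Without 1 library, the 5 genes had 1 to 4 calls at control P4 against P3, 1 to 2 at mutant A6 against A1 and 1 to 3 by genotype and stage; the libraries are named beside those results. The chinmo fall at control P2 was called by none of the 5 other settings run, with adjusted p between 0.0513 and 0.321, whereas Eip93F at control A1 against P4 was called by all 5, giving 4 genes there in place of 3. With the deposited factors as offsets, Eip93F at control P4 against P3 (adjusted p = 0.0622), Blimp-1 at mutant P4 against P3 (0.217) and br at mutant A6 against A1 (0.0841) were not called. With only the libraries compared, Blimp-1 at P4 against P3 in mutants (0.1002) and controls (0.0592) and Eip93F at mutant P1 against WPP (0.115) were not called. Over all genes, the 1582 calls at P2 became 728 with only the P2 libraries and 1030 to 1983 without 1 library, and the 1562 calls at A6 became 3218 with only the A6 libraries. The same fit gave 19 calls at P1, 26 at P3 and 44 at P4, against 109, 61 and 117, while DESeq2 gave 134 at WPP, 234 at P1 and 214 at P4, against 89 at WPP. The offset on the control course at A6 was -0.065 with a prior count of 0.5 and -0.12 with 500 genes. Depth limits Blimp-1 at P3 and P4, where libraries hold 10 to 44 counts.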
